A study of Mus musculus with 18 samples.

Results

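Distal colon organoids were compared with mid colon organoids in control medium, over 3 libraries each, and few genes differed. Organoids are epithelial cultures grown in gel from tissue stem cells. The comparison covers 11454 of the 56748 genes in the table, those with an FPKM (a read level corrected for the length of the gene and the size of the library) of at least 1 in at least 3 of these 6 libraries, and 10305 of them are protein-coding. Both groups were kept in ENR with Wnt3a-conditioned medium, in which organoids proliferate. The other 12 of the 18 libraries are distal and mid organoids in differentiation medium and proximal organoids in both media, again 3 a group, with the media applied 3 days after passaging. They enter the estimate of the spread, and the differentiation libraries give a second comparison of distal with mid. By its title, the study is about nicotinic acid from gut microbes and regional identity. The labels give each region's organoids as a cell line and do not say whether replicates came from separate animals or cultures, so p-values measure only the spread between these samples, which may be technical. A difference between regions and a difference between organoid lines cannot be told apart. The labels used here give no strain, age, sex or genotype of the mice.

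The colon epithelium keeps a record of its position along the gut in transcription factors, many of them of the homeobox class. HOX genes lie in clusters and are active in nested domains, with the genes at the 5′ end of a cluster active farthest toward the tail. CDX2, another homeobox factor, holds intestinal identity. The same epithelium contains crypt-base stem cells, dividing progenitors, absorptive colonocytes, mucus-secreting goblet cells and rare hormone-secreting cells.

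The widest difference lay in the HoxD cluster, where 7 of 10 genes (Evx2, beside the cluster, included) had reads in all 3 distal libraries, and all 10 had 0 reads in all 3 mid libraries. Evx2, Hoxd13 and Hoxd10 were the tested genes among them. The 250 bases before their start sites are shown because these genes passed the filter and were read in every distal library and in no mid library. The sequences are from RefSeq, build GRCm38.p6, 5′ to 3′ on each gene's own strand, with CpG dinucleotides in capitals. They lie at chr2:74659558-74659807 on the minus strand for Evx2, at chr2:74667975-74668224 on the plus strand for Hoxd13 and at chr2:74691641-74691890 on the plus strand for Hoxd10.
Evx2: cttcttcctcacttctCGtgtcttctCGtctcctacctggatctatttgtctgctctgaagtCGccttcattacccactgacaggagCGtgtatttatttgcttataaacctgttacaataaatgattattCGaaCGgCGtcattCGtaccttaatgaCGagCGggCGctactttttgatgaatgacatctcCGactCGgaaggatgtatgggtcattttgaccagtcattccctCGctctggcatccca
Hoxd13: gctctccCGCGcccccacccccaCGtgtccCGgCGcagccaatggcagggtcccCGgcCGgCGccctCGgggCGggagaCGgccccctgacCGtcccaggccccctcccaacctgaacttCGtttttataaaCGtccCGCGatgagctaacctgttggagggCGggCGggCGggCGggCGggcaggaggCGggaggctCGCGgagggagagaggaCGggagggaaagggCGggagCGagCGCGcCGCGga
Hoxd10: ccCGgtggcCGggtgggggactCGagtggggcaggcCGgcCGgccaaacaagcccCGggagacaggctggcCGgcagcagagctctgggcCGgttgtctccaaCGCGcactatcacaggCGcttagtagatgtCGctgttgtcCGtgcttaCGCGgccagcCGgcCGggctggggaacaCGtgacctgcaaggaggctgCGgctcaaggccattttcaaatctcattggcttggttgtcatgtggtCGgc
The stretch before Hoxd13 holds 31 CpG dinucleotides at 74.4% G+C, and 5.19% of the 32851 promoters in the RefSeq table hold as many. The median promoter has 6 CpG and 52.4% G+C. Hoxd10 has 20 CpG at 65.6% G+C, and 17.9% of promoters hold as many. Evx2 has 14 CpG at 45.6% G+C, and 29.4% of promoters hold as many. The letters TTTAT, a core of the motifs known for CDX and posterior HOX proteins, were searched on both strands. They occur 3 times before Evx2, 2 times before Hoxd13, where the matches overlap, and 0 times before Hoxd10, and 37.3% of all promoters hold at least 1 match. Of the 42 called genes, 28 have an entry in that table.

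In all, 42 genes were called between distal and mid organoids at an adjusted p under 0.05, which is 0.367% of those tested. Of these, 17 were higher and 25 lower in distal, and 39 are protein-coding. The same fit called 1526 genes between mid and proximal organoids (13.3%), a comparison that shares the mid libraries with this one. The distal and mid libraries did not overlap in any of the 42 genes. Over all tested genes, 597 had every distal library above every mid library (5.21%) and 823 had every distal library below (7.19%). Without adjustment, 643 genes had p under 0.05. The log2 fold change, distal minus mid on the log2(FPKM + 1) scale, had a median of -0.02 over all tested genes and a median size of 0.11. This scale understates the change of low genes, and 24 of the 42 had both means under 5 FPKM. For 10296 genes (89.9%) the whole 95% interval lay between -1 and 1, that is, within a doubling or halving of FPKM + 1. A change of at least 1 in either direction was fitted for 117 genes, and 92 of these were not called.

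**Figure D1:**
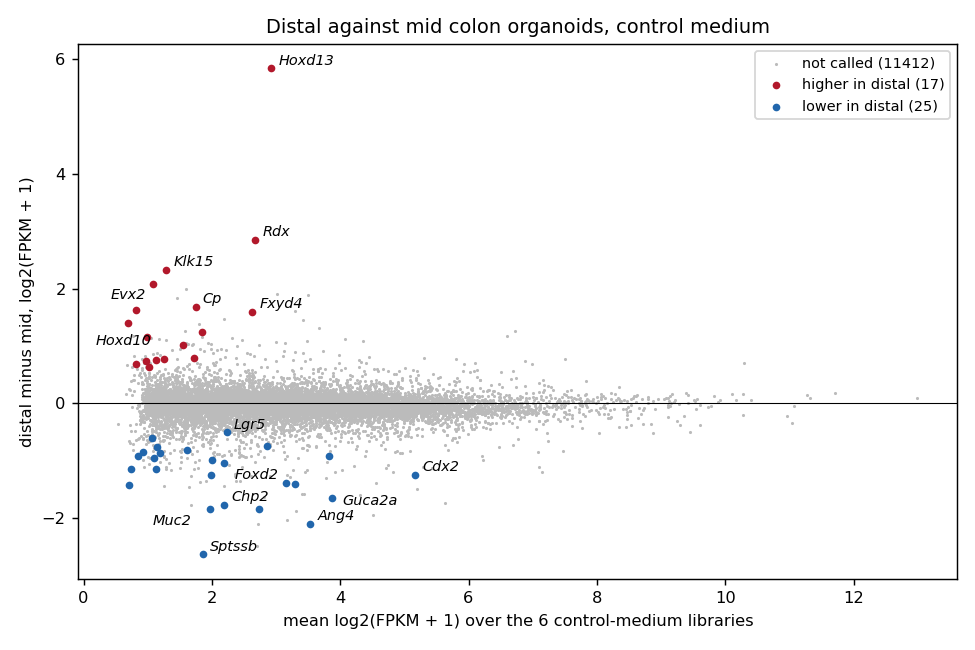
Each point is 1 of the 11454 tested genes, with the fitted difference distal minus mid on the log2(FPKM + 1) scale against its mean level in the control-medium libraries. The 42 called genes are coloured, 17 higher and 25 lower in distal, with Hoxd13 highest at 5.84 and Sptssb lowest at -2.63.

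The count of calls moved with the libraries that set the spread. It was 17 with the 9 control-medium libraries, 12 of them among the 42. With the 6 distal and mid libraries alone it was 6, namely Hoxd13, Rdx, Evx2, Hoxd10 and Mettl7a3, which are among the 42, and Cyp2c65, a cytochrome P450, lower in distal. Of the 42 genes, 13 were under 1 FPKM in all 6 distal and mid differentiation libraries, which also enter the shared spread. There were 14 calls without distal replicate 2, 18 without mid replicate 1, 18 without mid replicate 3, 21 without mid replicate 2, 25 without distal replicate 1 and 68 without distal replicate 3. The 13 genes called whichever of these libraries was left out were Hoxd13, Evx2, Hoxd10, Rdx, Klk15, Mettl7a3, Fxyd4, Foxd2, Foxd2os, Smoc1, Smoc2, Rbpms and Xlr3b. The other 29 lost their call without at least 1 library.

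The 6 libraries held 15608565 to 18081010 reads each. Over the tested genes, distal replicate 3 correlated at 0.981 with mid replicate 3 (Pearson, log2 scale), and at 0.960 and 0.944 with distal replicates 1 and 2. The first principal component (43.8% of the variance) had distal replicate 3 and mid replicate 3 at one end and distal replicate 2 at the other, and the second (23.98%) separated the regions. Epithelial markers were high in every library, with Epcam at 346 to 536 FPKM and the intestinal factor Cdx2 at 13.5 to 64.7 FPKM. Most markers of other tissues were near 0. The highest of 5 fibroblast markers reached 0.153 FPKM, and Col1a2, Dcn, Cd3e, Sox10, Des and Actg2 were listed at 0 in all 6 libraries, while the macrophage marker Cd68 had 0.722 to 2.63 FPKM. Of the 5 anorectal squamous markers, Krt5 reached 0.196 FPKM and Trp63 0.0293 FPKM, while Krt14 had 4.08 to 12.1 FPKM in distal and 12.1 to 27.1 FPKM in mid libraries. Krt13 averaged 4.99 ± 3.83 FPKM in distal and 2.29 ± 0.777 FPKM in mid libraries, and Dsg3 2.34 ± 1.16 FPKM in distal and 1.80 ± 0.438 FPKM in mid libraries (SD, n = 3 each), with overlap in both. The summed squamous markers reached 6.76 to 24.3 FPKM in distal and 15.8 to 31.9 FPKM in mid libraries with overlap, a sum in which Krt14 was the one lower on average in distal of these 3, and their part in the results was not tested.

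Hoxd13, the gene at the 5′ end of the HoxD cluster, had 58.2, 74.2 and 41.4 FPKM in the distal libraries and 0 FPKM in each mid library. Those values are 2932, 3855 and 1838 reads in distal libraries against none in mid libraries. The distal mean was 57.9 ± 16.4 FPKM (SD, n = 3), at least 2885-fold higher than 3 reads over the whole mid group would give, and the adjusted p was 6.19e-12. Such bounds cover counting error only. Evx2, a homeobox gene read from the opposite strand next to Hoxd13, had 2.12, 2.43 and 1.80 FPKM in distal and 0 FPKM in each mid library, at least 178-fold higher (adjusted p = 1.26e-06). Hoxd10 had 1.38, 1.79 and 1.76 FPKM in distal and 0 FPKM in each mid library, at least 59.9-fold higher (adjusted p = 0.000545). All 3 genes thus had reads in every distal library and in no mid library. They were also at 0 FPKM in all proximal and mid differentiation libraries, and these zeros enter the shared spread. With the 6 compared libraries alone, the adjusted p was 0.000128 for Hoxd13, 0.0223 for Evx2 and 0.0488 for Hoxd10. These 3 genes passed the filter of 1 FPKM through the distal libraries alone, as 34 tested genes did, and 33 passed through the mid libraries alone. Each of these sets holds 9 of the 42 calls. Klk15 and Mettl7a3 are also in the distal set, and Smoc1, Xlr3b and Rbpms are in the mid set.

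In the authors' table, on build mm39, Evx2 spans chr2:74483335-74489901, Hoxd13 chr2:74498654-74501943 and Hoxd10 chr2:74522268-74525449. The other HoxD genes were under the filter and were not tested. Hoxd11 had 49, 76 and 46 reads in distal libraries and Hoxd9 had 40, 19 and 23, both with 0 reads in every mid library. Hoxd12 had 4, 8 and 2 reads and Hoxd8 4, 1 and 6 in distal libraries, again with 0 in mid libraries. Hoxd4, Hoxd3 and Hoxd1, toward the 3′ end, had 0 reads in all 6 libraries. Over the 10 genes, the distal libraries held 9607 reads and the mid libraries 0, and the proximal control libraries held 16. The genes on either side of the cluster were read in both regions. Lnpk, whose product shapes the endoplasmic reticulum, lies on the Evx2 side, with its lower coordinate 148 kb from that of Hoxd13. Lnpk had 2.66, 2.54 and 2.08 FPKM in distal and 1.82, 1.54 and 1.93 FPKM in mid libraries. The groups did not overlap, but Lnpk was not called (adjusted p = 0.551). Mtx2, a mitochondrial import gene, lies on the other side, 157 kb away by the same measure. Mtx2 had 13.3, 11.7 and 13.5 FPKM in distal and 13.9, 14.2 and 13.6 FPKM in mid libraries and was not called (adjusted p = 0.996).

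**Figure D2:**
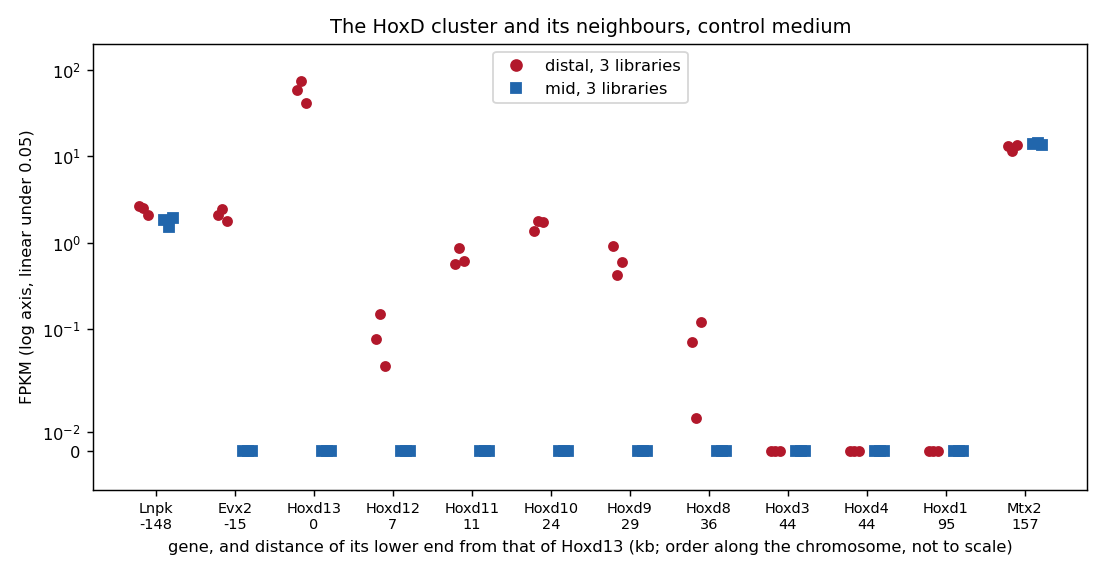
FPKM of the HoxD genes, Evx2 and the flanking genes Lnpk and Mtx2 in the 3 distal and the 3 mid control-medium libraries. Genes are in chromosome order, with the distance of their lower coordinate from that of Hoxd13 in kb. Evx2, Hoxd13, Hoxd12, Hoxd11, Hoxd10, Hoxd9 and Hoxd8 have values in distal and 0 in mid libraries, Hoxd4, Hoxd3 and Hoxd1 are at 0 in both, and the flanking genes have values in both.

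The posterior genes of the other HOX clusters were not called. Of 16 posterior HOX genes listed, 8 were tested, Hoxd13 and Hoxd10 were called higher in distal, and none was called lower. Over all tested genes, 0.367% were called. Hoxd13 and Hoxd10 passed the filter through the distal libraries alone, so they could be called only as higher. Hoxb13 had 61.4, 80.3 and 55.98 FPKM in distal and 65.6, 62.99 and 47.02 FPKM in mid libraries, with overlapping groups and a log2 fold change of 0.17 (95% interval -0.20 to 0.53). Hoxa13 averaged 19.7 ± 2.66 FPKM in distal and 20.2 ± 0.605 FPKM in mid libraries (SD, n = 3), with a 95% interval of -0.23 to 0.15. Both genes were therefore read in mid libraries, in which Hoxd13 had no reads. Hoxa10 (log2 fold change -0.16), Hoxa9 (-0.19) and Hoxb9 (-0.40) were not called. Hoxa11 had 0.904, 1.17 and 2.15 FPKM in distal and 2.24, 2.43 and 2.84 FPKM in mid libraries without overlap and was not called (adjusted p = 0.510). Of the 23 anterior and central HOX genes, 6 were tested and 0 called, with a median of -0.37 beside -0.02 over all genes. Among them, Hoxa2, Hoxa3 and Hoxa7 had every distal library below every mid library, as did 7.19% of all genes.

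Of 24 other transcription factors of gut position, 13 were tested, Evx2 was called higher, and Cdx2 and Foxd2 were called lower in distal. The share called over all tested genes was 0.367%, and Evx2 passed the filter through the distal libraries alone. Cdx2, which holds intestinal identity, had 30.1, 27.3 and 13.5 FPKM in distal and 64.7, 58.8 and 42.00 FPKM in mid libraries. The groups did not overlap, and the log2 fold change was -1.24 ± 0.24 (SE, adjusted p = 0.0352), but the adjusted p was 0.200 without mid replicate 1 and 0.245 with the 9 control-medium libraries. Foxd2, a forkhead factor, had 4.94, 6.10 and 4.10 FPKM in distal and 18.1, 15.2 and 12.1 FPKM in mid libraries (log2 fold change -1.41 ± 0.19, SE, adjusted p = 0.00210). Every distal library was under every mid library, and the highest adjusted p with 1 library left out was 0.0179. Foxd2os, a non-coding RNA gene 0.354 kb from Foxd2, had 1.17, 2.54 and 1.22 FPKM in distal and 6.16, 4.77 and 4.53 FPKM in mid libraries (log2 fold change -1.25, adjusted p = 0.00316). The labels name both a stranded and an unstranded library protocol, so reads of overlapping or adjacent genes may be shared. Cdx1, a relative of Cdx2, had a log2 fold change of -0.26 (95% interval -0.78 to 0.26) and was not called. Gata6, Hnf4a, Hnf4g, Prdm16, Nr2f2, Evx1 and Isx were not called either, with log2 fold changes from -0.44 for Isx to 0.23 for Nr2f2.

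Outside the HoxD cluster, Rdx had the lowest adjusted p. It encodes radixin, which ties actin filaments to the cell membrane, as in microvilli. Rdx had 15.6, 16.6 and 16.4 FPKM in distal and 1.39, 1.19 and 1.59 FPKM in mid libraries. Its log2 fold change was 2.85 ± 0.11 (SE, adjusted p = 2.75e-10), and Rdx, Hoxd13 and Evx2 were the 3 genes called under every alternative that tested them. The proximal control libraries had 0.258, 0.420 and 0.303 FPKM of Rdx. Zc3h12c, a ribonuclease gene 10.9 kb from Rdx, was also called, at 1.42, 1.15 and 1.17 FPKM in distal and 0.616, 0.254 and 0.322 FPKM in mid libraries (log2 fold change 0.69, adjusted p = 0.0239, and 0.134 without mid replicate 2). Tmprss13, a membrane serine protease, and Fxyd6, a sodium pump regulator, lie 22.6 kb apart and were called higher by 0.77 and 0.75 on the log2 scale. In all, 9 of the 42 genes lie within 100 kb of another called gene, and the rest of these are Evx2, Hoxd13, Hoxd10, Foxd2 and Foxd2os.

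Among the other genes higher in distal, Klk15 had the largest fitted change. It encodes a kallikrein-related serine protease and had 3.11, 2.31 and 10.9 FPKM in distal and 0, 0.107 and 0.162 FPKM in mid libraries (log2 fold change 2.32 ± 0.36, SE, adjusted p = 0.00771, and 0.110 with the 9 control-medium libraries). Distal replicate 3 stood well above the other distal libraries. Fxyd4, a small regulator of the sodium pump, had 10.9, 9.21 and 9.12 FPKM in distal and 3.32, 1.78 and 2.72 FPKM in mid libraries (log2 fold change 1.60 ± 0.24, SE, adjusted p = 0.00557). Fxyd4 was the 1 called gene of 21 tested sodium and chloride transport genes, where 0.367% of all tested genes were called. Every distal library was below every mid library in 4 of the 21 (7.19% of all genes) and above in 1 (5.21%). Cp, the copper-carrying plasma protein ceruloplasmin, had 6.61, 7.12 and 2.51 FPKM in distal and 1.31, 0.737 and 0.637 FPKM in mid libraries (log2 fold change 1.68, adjusted p = 0.0121, and 0.0799 without distal replicate 2). Mettl7a3, a methyltransferase-like gene with close copies among which reads may be split, had 3.04, 4.92 and 2.47 FPKM in distal and at most 0.0574 FPKM in mid libraries (log2 fold change 2.08, adjusted p = 0.00134). The rest were Tlcd2, Serpina9 (a serine protease inhibitor), Pros1 (protein S, an anticoagulant cofactor), Shfl (an antiviral factor), Thpo (thrombopoietin) and Tdrd1 (a tudor protein of the germ line), with distal means of 1.52 FPKM for Tdrd1 to 4.60 FPKM for Tlcd2. Their log2 fold changes ran from 0.64 to 1.24, and each lost its call without at least 1 library. With the replicate number as a block, Shfl (adjusted p = 0.0560) and Thpo (0.0503) were not called.

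**Figure D3:**
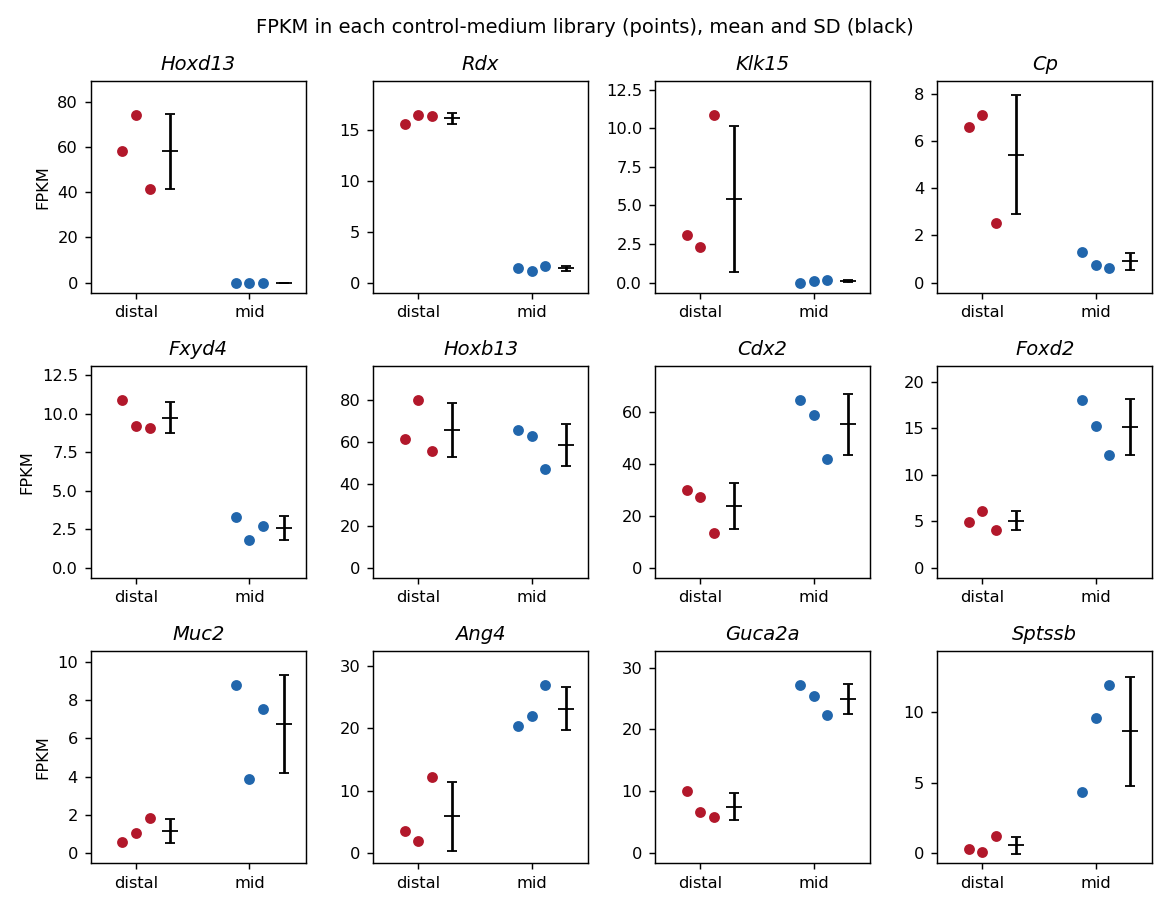
FPKM of named genes in each control-medium library, distal left of mid, with the mean and SD over 3 libraries. Hoxd13 has values in distal libraries and 0 in mid libraries, Rdx is higher in every distal library, Hoxb13 overlaps between the groups, and Cdx2, Foxd2 and Muc2 are lower in every distal library.

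Outside the transcription factors, the genes lower in distal with the largest fitted changes included Sptssb, Muc2, Ang4 and Guca2a. Sptssb, a small subunit of the first enzyme of sphingolipid synthesis, had 0.297, 0.0785 and 1.19 FPKM in distal and 4.34, 9.62 and 11.95 FPKM in mid libraries (log2 fold change -2.63 ± 0.47, SE, adjusted p = 0.0239). Ang4, a secreted antimicrobial ribonuclease, had 3.54, 1.89 and 12.2 FPKM in distal and 20.3, 21.98 and 26.9 FPKM in mid libraries (log2 fold change -2.10 ± 0.40, SE, adjusted p = 0.0312). Muc2, the gel-forming mucin of goblet cells, had 0.559, 1.02 and 1.82 FPKM in distal and 8.81, 3.88 and 7.55 FPKM in mid libraries (log2 fold change -1.84 ± 0.36, SE, adjusted p = 0.0328). In bulk RNA, fewer cells of a type and less RNA per cell cannot be told apart. Guca2a, which encodes the gut peptide guanylin, had 9.95, 6.68 and 5.74 FPKM in distal and 27.2, 25.4 and 22.3 FPKM in mid libraries (log2 fold change -1.65 ± 0.31, SE, adjusted p = 0.0315). No distal library reached a mid library in these 4 genes, and distal replicate 3 was the highest distal library for Sptssb, Ang4 and Muc2. Each of the 4 lost its call without at least 1 library, with adjusted p up to 0.124 for Sptssb, 0.153 for Ang4, 0.190 for Muc2 and 0.154 for Guca2a. Chp2, a calcium-binding partner of sodium-proton exchangers, fell by 1.77 on the log2 scale, Ckb, the brain-type creatine kinase, by 1.38, and Mmp14, a membrane-bound matrix protease, by 0.91. Gm10451 fell by 1.05 and Tmem181c-ps, a pseudogene whose reads may belong to close copies, by 1.83.

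Smoc1 and Smoc2, which encode related secreted calcium-binding matrix proteins, were both lower in distal. Smoc1 had 0 FPKM in each distal library and 1.08, 1.93 and 2.17 FPKM in mid libraries (adjusted p = 0.000737, and 0.0994 with the 6 compared libraries alone). That is at least 119-fold lower with 3 reads over the distal group as the floor. All proximal and distal differentiation libraries were at 0 FPKM too, and these zeros enter the shared spread. Smoc2, also a marker of crypt-base stem cells, had 1.86, 1.88 and 1.81 FPKM in distal and 5.51, 4.65 and 3.89 FPKM in mid libraries (log2 fold change -0.99 ± 0.12, SE, adjusted p = 0.000763). Lgr5, the R-spondin receptor that marks these stem cells, had 3.13, 3.06 and 2.65 FPKM in distal and 5.05, 4.62 and 4.15 FPKM in mid libraries (log2 fold change -0.51 ± 0.10, SE, adjusted p = 0.0352). The groups did not overlap in any of the 3 genes, but the Lgr5 call was lost whichever library was left out, with adjusted p up to 0.230. Smoc2 and Lgr5 were the 2 called genes of 18 tested crypt stem and Wnt genes, where 0.367% of all tested genes were called. The median of this list was -0.13, and -0.20 with 1 call without distal replicate 3. Axin2, a feedback target of Wnt signalling, had 14.2, 15.8 and 14.3 FPKM in distal and 13.1, 13.8 and 13.2 FPKM in mid libraries and was not called, nor were Ascl2, a stem cell factor, and Myc. The remaining genes lower in distal were Boc (a hedgehog co-receptor), Xlr3b (of a multicopy X-linked family, so that reads may be split), Rbpms (an RNA-binding protein), Mmd, St6galnac2 (a sialyltransferase), Ccl9 (a chemokine), Zfp704, Sema5a (a semaphorin), P2ry1 (an ADP receptor) and Snx20 (a sorting nexin). Their log2 fold changes ran from -1.14 for Boc to -0.61 for Snx20. P2ry1 was not called with the replicate block (adjusted p = 0.0560).

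The proximal control libraries were set beside the 42 genes as a description, since the mid libraries are the ones that chose them. In 14 of the genes lower in distal, every mid library was above every distal and every proximal library. Foxd2 had 0.0461 to 0.447 FPKM in proximal libraries and Ang4 1.70 to 4.08 FPKM, both under their mid values. In 5 others, every proximal library was above every mid library and every mid library above every distal one. Cdx2 had 80.7 to 122 FPKM and Sptssb 19.4 to 35.2 FPKM in proximal libraries, above their mid values. Of the 17 genes higher in distal, 8 were ordered distal above mid above proximal in every library, Rdx, Fxyd4 and Cp among them.

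Across 48 gene lists with 623 distinct tested genes, 12 genes were called and 35 lists had no called member, where 0.367% of all tested genes were called. The gut position factors held 3 called genes, and no other list held more than 2.

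The goblet cell list had 1 call but leaned lower. Of 15 tested genes, Muc2 was called lower and none higher, all 15 had a negative log2 fold change, and 11 had every distal library below every mid library, where 7.19% of all genes did. The median was -1.11, beside -0.02 over all genes. Zg16, a lectin of mucus granules, had 4.11, 1.14 and 7.07 FPKM in distal and 14.6, 16.7 and 21.03 FPKM in mid libraries and was not called (adjusted p = 0.175). Tff3, a trefoil peptide, had 111, 103 and 68.4 FPKM in distal and 255, 198 and 158 FPKM in mid libraries (adjusted p = 0.407). Spdef, a factor of goblet cell maturation, had 2.20, 1.37 and 1.31 FPKM in distal and 7.53, 3.97 and 4.09 FPKM in mid libraries (adjusted p = 0.0674). In each of these 3 the groups did not overlap. The 3 goblet markers Muc2, Tff3 and Fcgbp summed to 74.7 to 118 FPKM in distal and 178 to 283 FPKM in mid libraries, and what a different share of goblet cells adds to the other calls was not tested. With the replicate block, 3 goblet genes were called, namely Muc2, Spdef (adjusted p = 0.00755) and Spink4 (0.0410). Without distal replicate 3 the median was -1.05, and in differentiation medium it was -0.23 with 0 called.

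Other secretory cells had fewer readable genes. All 8 tested enteroendocrine genes had negative log2 fold changes, with a median of -0.79, and 0 were called. Without distal replicate 3 the median was -1.18, and Gcg, the proglucagon gene, was called lower (adjusted p = 0.0413). Chga, a hormone granule protein, had 0.429, 0.642 and 1.32 FPKM in distal and 2.22, 1.78 and 1.69 FPKM in mid libraries (adjusted p = 0.577). Pyy, the peptide YY gene, had 5.23, 2.20 and 9.04 FPKM in distal and 14.7, 8.02 and 17.9 FPKM in mid libraries, with overlap, and was called with the replicate block (adjusted p = 0.0318, against 0.300 without it). Of 8 tested deep crypt secretory and Paneth genes, Ang4 was called lower, where 0.367% of all tested genes were called. All 8 had negative values, with a median of -0.67. Of 18 tuft cell genes, 1 was tested and 0 called. The tested gene was higher in distal by 1.12 on the log2 scale, without overlap. Without distal replicate 3 it was called higher, at 1.42.

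Of 26 tested colonocyte genes, Guca2a was called lower and none higher, where 0.367% of all tested genes were called. The median was -0.54, and 22 of the 26 had negative values, as did 54.6% of all tested genes. In 7 of the 26 every distal library was below every mid library (7.19% of all genes), and in 1 every distal library was above (5.21%). Without distal replicate 3, 2 were called lower, and Guca2a was not (adjusted p = 0.0782). Car1, a carbonic anhydrase, had 2105, 1535 and 1258 FPKM in distal and 916, 1196 and 864 FPKM in mid libraries. Every distal library was above every mid library, but Car1 was not called, with a log2 fold change of 0.70 (95% interval -0.20 to 1.60). Krt20, a keratin of mature colonocytes, had 21.8, 6.82 and 60.1 FPKM in distal and 27.97, 36.8 and 55.3 FPKM in mid libraries, so that the distal libraries spanned the mid ones. Aqp8, a water channel, had 12.4, 6.56 and 11.5 FPKM in distal and 14.9, 22.1 and 18.2 FPKM in mid libraries without overlap (adjusted p = 0.625). Of 24 tested proliferation genes, 0 were called and 23 had negative values, with a median of -0.48. Mki67, a protein of dividing cells, had 21.2, 39.3 and 16.3 FPKM in distal and 33.1, 38.4 and 30.8 FPKM in mid libraries, and its 95% interval of -1.75 to 0.77 includes both no change and a fall of more than 1. The interval lay between -1 and 1 for 1 of these genes, so a difference in proliferation was not decided at this spread.

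**Figure D4:**
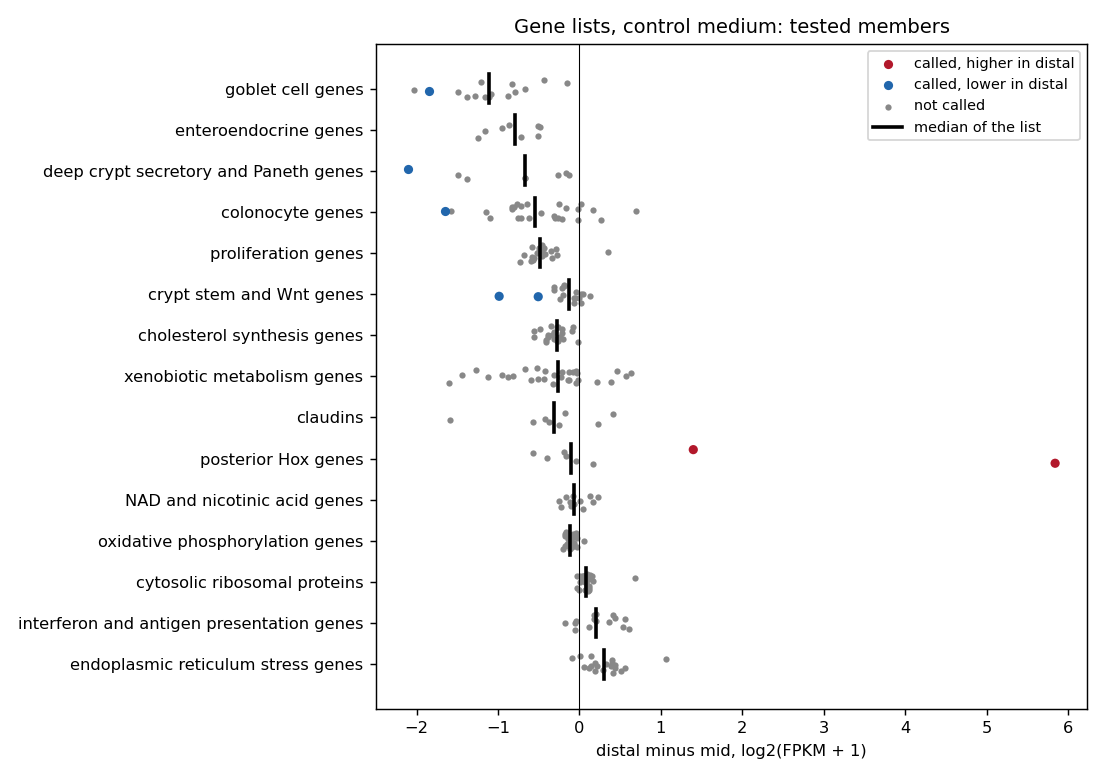
Distal minus mid differences on the log2(FPKM + 1) scale for the tested members of gene lists in control medium, with called genes coloured and the median of each list as a bar. The goblet cell list has its median at -1.11 with 1 called gene, the cytosolic ribosomal proteins have theirs at 0.08 with none, and Hoxd13 stands alone at the far right.

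Some families had small changes with narrow intervals. All 25 tested oxidative phosphorylation genes had a 95% interval between -1 and 1, with 0 called and log2 fold changes of -0.20 to 0.05. The same held for 29 of 30 cytosolic ribosomal proteins, with 0 called. All 12 tested genes of NAD and nicotinic acid metabolism had such an interval, with 0 called and values of -0.25 to 0.23. Naprt, the first enzyme from nicotinic acid toward NAD, had 6.56, 3.79 and 3.46 FPKM in distal and 5.02, 5.71 and 3.67 FPKM in mid libraries, with overlap. Hcar2, the nicotinic acid receptor, was under the filter and not tested, at 0.510, 0.0743 and 0.203 FPKM in distal and 0.0983, 0.159 and 0.106 FPKM in mid libraries. Slc5a8, a transporter of short-chain fatty acids and nicotinate, was not tested either, at 0.360, 0.861 and 0.692 FPKM in distal and 1.42, 0.556 and 0.480 FPKM in mid libraries. For the next lists that share was under the 89.9% of all tested genes. The interval lay between -1 and 1 for 19 of 22 PPAR targets and fatty acid oxidation genes and for 15 of 18 epithelial keratin and junction genes, and 0 were called in either list. The PPAR list reached -1.16. Of its 22 tested genes, 4 had every distal library below every mid library (7.19% of all genes) and 0 had every distal library above (5.21%).

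In most other families no gene was called, and in some of them the members leaned to one side or varied widely. All 23 cholesterol synthesis genes were tested and had negative values, as did 54.6% of all tested genes, with a median of -0.28. Every distal library was below every mid library in 13 of them and in 7.19% of all genes. The 20 endoplasmic reticulum stress genes had a median of 0.31, and of 0.50 without distal replicate 3. Their FPKM summed to 2046, 771 and 767 in distal and 904, 879 and 810.5 in mid libraries, so distal replicate 1 stood apart. Trib3, a stress-induced pseudokinase, had 55.2, 6.57 and 2.61 FPKM in distal and 8.54, 3.27 and 3.13 FPKM in mid libraries, with distal replicate 1 far above the rest. The same library was highest for Isg15, an interferon-induced gene, at 16.95, 0.544 and 2.31 FPKM in distal and 1.08, 2.25 and 3.28 FPKM in mid libraries, and 0 of 15 interferon and antigen presentation genes were called. Of 30 xenobiotic metabolism genes, 0 were called and 25 had negative values. Claudins (8 tested), potassium channel subunits (6), retinoid genes (11), EGF family genes (10), immediate early genes (17) and squamous anorectal genes (14) had 0 called each. The potassium channel subunits ran from -0.31 to 0.15, and 5 of the 6 had a 95% interval between -1 and 1. So did 13 of the 17 immediate early genes, with a median of -0.10. Of 25 integrin, laminin and matrix genes, Mmp14 was called lower, where 0.367% of all tested genes were called. Fn1, fibronectin, had 30.02, 14.7 and 321 FPKM in distal and 46.03, 94.5 and 234 FPKM in mid libraries, and replicate 3 was the highest library of both regions. Gapdh, a glycolytic enzyme whose reads may be shared with its many pseudogenes, had 2.59, 2.995 and 3.38 FPKM in distal and 4.68, 5.24 and 51.99 FPKM in mid libraries and was not called.

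Markers of the proximal and distal colon were read against the 0.367% called of all tested genes. Of 12 tested proximal markers, Ang4 was called lower and Fxyd4 higher in distal, and 9 had negative values. Neither called gene was highest in proximal control libraries. Fxyd4 had 0.0329 to 0.244 FPKM there and Ang4 1.70 to 4.08 FPKM, both under their mid values. Without overlap, 5 of the 12 markers were lower (7.19% of all genes) and 2 higher (5.21%). Their median was -0.75, and -0.45 without distal replicate 3. Of 12 tested distal markers, Hoxd13 was called higher and none lower. These lists were drawn up with earlier results of these libraries known, so their direction is no independent evidence. Hsd11b2, a distal marker that inactivates glucocorticoids, had 2.78, 2.31 and 3.86 FPKM in distal and 8.45, 7.61 and 9.35 FPKM in mid libraries without overlap and was not called (adjusted p = 0.122), but was called lower in distal with the 9 control-medium libraries (adjusted p = 0.0234).

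In differentiation medium, 48 of the same 11454 genes were called between distal and mid (0.419%), 19 higher and 29 lower in distal. In both media, 14 genes were called in the same direction, which is 33.3% of the control calls and 29.2% of the differentiation calls. The same fit tested both media with a shared spread for each gene, so the calls in the 2 media are not independent. They were Hoxd13, Rdx, Mettl7a3 and Fxyd4, higher in distal, and Snx20, Zfp704, Xlr3b, Ckb, Foxd2, Smoc1, Guca2a, Chp2, Tmem181c-ps and Sptssb, lower in distal. Hoxd13 had 19.6, 28.5 and 20.7 FPKM in distal and 0 FPKM in each mid differentiation library. Rdx had 10.6, 11.5 and 9.14 FPKM in distal and 0.943, 0.782 and 0.628 FPKM in mid differentiation libraries. Sptssb had 1.58, 3.08 and 10.9 FPKM in distal and 58.4, 65.9 and 88.02 FPKM in mid differentiation libraries. In all 3 genes the regions were again apart. Lnpk, which flanks the HoxD cluster, was called in differentiation medium (log2 fold change 0.75, adjusted p = 0.00436). Over the 10 genes of the cluster, the distal differentiation libraries held 2491 reads and the mid differentiation libraries 0. Some genes called in control medium were hardly read in the other, with Lgr5 at no more than 0.0352 FPKM and Smoc2 at no more than 0.0944 FPKM in the 6 differentiation libraries. The difference between media was itself called for 1 gene, Evx2 (0.00873% of those tested), whose distal mean was 0.329 ± 0.132 FPKM in differentiation medium and 2.12 ± 0.314 FPKM in control medium (SD, n = 3), with 0 FPKM in every mid library of both. Evx2 passed the filter through the distal control libraries alone. Its call was lost with the replicate block (adjusted p = 0.05004), the compared libraries alone (0.327), a pseudocount of 0.1 (0.9999), voom (0.9995) and in 8 of the 12 fits with 1 library left out (up to 0.0837).

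**Figure D5:**
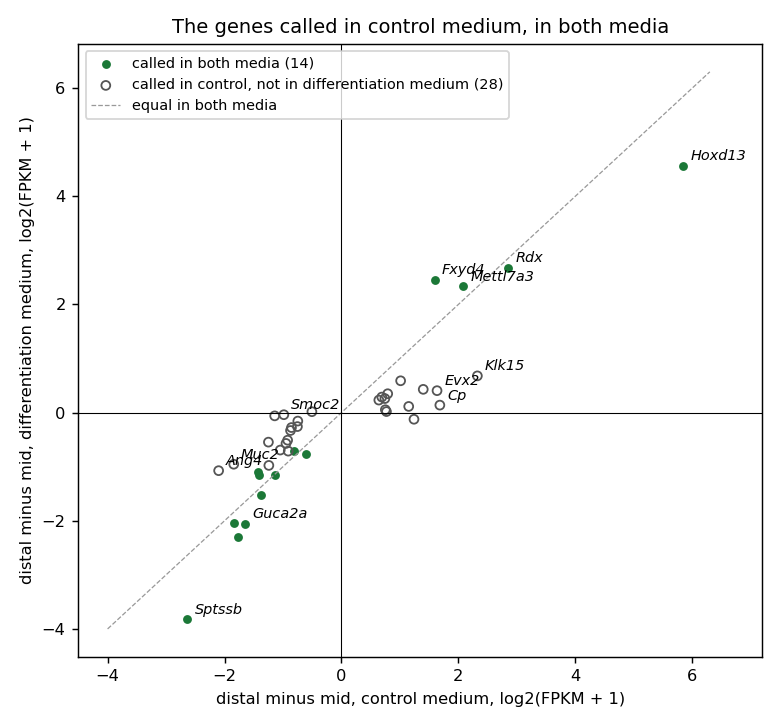
Distal minus mid differences of the 42 genes called in control medium, with control medium on the horizontal and differentiation medium on the vertical axis, both on the log2(FPKM + 1) scale. The 14 genes called in both media include Hoxd13, Rdx and Sptssb, and 40 of the 42 have the same sign in both.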

How the data were processed

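Poly-A RNA from 18 mouse colon organoid libraries was sequenced, 3 in each of 6 groups of region and medium, and groups were taken from the labels. The authors deposited FPKM values per gene and library, per the file headers. Alignment with HISAT2 2.0.5, counting with featureCounts 1.5.0-p3 and build mm39 are named in the submitters' processing notes, while the scaling of the libraries is named in none of the sources. Taken times gene length, the FPKM came out as whole reads within 0.001 of a read, and these reads gave the depths, floors and bounds and the voom alternative.

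Tests covered genes that reached 1 FPKM in 3 or more of the 6 libraries compared, and ran on log2(FPKM + 1), a pseudocount of 1, using limma's trended empirical Bayes test (version 3.58.1, R 4.3.3). The fit had 6 group means over all 18 libraries and 12 residual degrees of freedom, p-values were adjusted by Benjamini-Hochberg over the 11454 genes, and the threshold was 0.05. The same fit tested the regions in differentiation medium and the difference between media. The script was tested on simulated data.

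The rule for named genes took, among called genes without overlap between the groups and with a mean of at least 5 FPKM in one of them, the 12 highest and the 12 lowest changes (5 genes passed at the higher end), then the tested posterior HOX and gut position genes, the called members of lists, and a fixed set of cell type genes and of nicotinic acid genes. The remaining called genes, the HoxD genes under the filter, Lnpk, Mtx2 and the uncalled list members given as examples were chosen after their values were seen. The genes, lists and tests were chosen with earlier results of these data known. For symbols on several rows, the row with most reads was used, and 930 of 937 listed genes were matched by symbol. A few genes are not reported here. The table had 0 value columns that could not be mapped to a sample.

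In control medium, the deviations of distal and mid libraries of the same replicate number from their group means correlated at 0.196, 0.170 and 0.594 across genes. Distal replicate 2 correlated more with mid replicate 1 (0.397), so only replicate 3 stood out as a pair. Whether the numbers pair the samples was not settled. The main fit had no pairing, and a fit with the replicate number as a block was an alternative. Other alternatives were another pseudocount and filters, fewer libraries in the fit, other scalings, and leaving out each library.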

Additional observations from a re-analysis of the deposited data

Results flagged for a closer look

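Evx2 was flagged because the difference between distal and mid organoids itself differed between the media by its own test. The log2 fold change, distal minus mid, was lower in differentiation than in control medium by an interaction of -1.23 ± 0.16 (SE, limma, adjusted p = 0.0173, 3 libraries a group). All 3 distal differentiation libraries were under all 3 distal control libraries. Every mid library of both media was at 0, so the interaction holds only the change within distal organoids. Evx2 was tested only through the distal control libraries, where it is high. Hoxd13, also at 0 in mid libraries, had an interaction of -1.28 ± 0.23 (SE) and was not called (adjusted p = 0.140). For Evx2, the adjusted p ranged from 0.000144 to 0.9999 over the alternatives and was 0.05004 with the replicate block, just past the threshold.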

How the results depend on the processing

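The counts of called genes moved with the processing. In control medium (42 calls), there were 11 with a pseudocount of 0.1, 5 with a filter at 5 FPKM, 83 with no filter, 6 with the compared libraries alone, 17 with the control-medium libraries, 27 with voom on the recovered reads, and 14 to 68 with 1 library left out. In differentiation medium (48 calls), there were 24 with the filter at 5 FPKM, 147 with no filter, 89 with the filter over all 18 libraries, 10 with the compared libraries alone, 25 with the libraries of that medium, and 27 to 69 with 1 library left out. The difference between media (1 call) had 0 calls with the pseudocount of 0.1, the filter at 5 FPKM, the compared libraries alone, the replicate block or voom, 10 with no filter, 4 with the filter over all 18 libraries, and 0 to 4 with 1 library left out. At an unadjusted p under 0.05, the main fit had 349 genes for this difference. With the replicate number as a block, 51 genes were called in control medium, 39 of them among the 42, and 59 in differentiation medium, and with the block and the compared libraries alone there were 13 and 4. In differentiation medium, the deviations of distal and mid libraries of the same replicate number correlated at 0.101, 0.0907 and -0.0342. These values do not settle whether the numbers pair those samples. Scaling to summed reads gave 48 and 48 calls. For the genes named by rule, no alternative reversed a called direction, and a call was lost in 139 pairs of a gene and an alternative and kept, or the gene stayed uncalled, in 618 others, with 8 more changing sign without a call. The cause of these changes was not tested. The gene lists without distal replicate 3 were an alternative chosen after seeing the data, which left the goblet cell list at 1 call. With 15608565 reads in the shallowest library, genes under 1 FPKM were mostly not tested.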
